A study of Mus musculus with 30 samples.

Results

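The genes of the AMPA and NMDA glutamate receptor subunits were taken by symbol from expression values of 23993 genes, and all 10 were found. The unit is FPKM, a fragment count scaled to transcript length and to library size. They are the 4 AMPA receptor subunits Gria1, Gria2, Gria3 and Gria4 and the 6 NMDA receptor subunits Grin1, Grin2a, Grin2b, Grin2c, Grin2d and Grin3a. AMPA receptors are tetramers of GluA subunits and carry most of the fast excitatory current in the cortex, and the GluA2 subunit that Gria2 encodes keeps the edited channel nearly closed to calcium. NMDA receptors need the GluN1 subunit that Grin1 encodes, which assembles with GluN2 or GluN3 subunits. The GluN2 subunit sets how long the channel stays open and how strongly magnesium blocks it.

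The libraries were RNA-seq of tdTomato-positive cells sorted from the medial prefrontal cortex of heterozygous mice on a C57BL/6 background, aged 6 to 12 weeks. All mice carried the Ai9 tdTomato reporter with a Cre driver, Sst-Cre for cells with a history of somatostatin expression or Pvalb-Cre for cells with a history of parvalbumin expression, so that the reporter marks any cell in which Cre was once active. The 24 libraries came from 7 Sst control females, 7 Sst control males, 3 Sst males after 14 days of chronic unpredictable stress (CUS) and 7 Pvalb control males, the controls being nonstressed. Of the Sst control males, 4 libraries have a running number in the title, as the Pvalb males and all females but SST-F do. The other 3 have a date-like code, as the CUS males do. They are called numbered and dated males below. The title of the female SST-F holds neither a number nor a date-like code, and SST-F is counted with the numbered Sst samples.

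The Pvalb libraries PV0-M and PV2-M hardly differed, with an SD of the log2 ratio over genes of 0.0170 against 0.225 for the next closest pair of Pvalb males, and so were SST0-M and SST1-M (0.0212 against 0.267). Each pair was averaged and counted as 1 sample, which left 22 samples. Only the closest pair of each group was checked in this way, and all remaining samples were treated as independent. Of the Pvalb libraries labelled male, 3 (PV1-M, PV4-M and PV5-M) held Xist above 100 FPKM, against their label. Small nucleolar and Cajal body RNA genes held 53.5 to 75.7% of the summed FPKM in the dated control and CUS males and at most 8.29% in the other samples. Relative depth, judged from the lowest values, ranged from 0.46 to 2.46, so low levels are less certain in the shallow libraries, and the read number itself is unknown. Nothing states whether samples came from single mice or pools, so the tests measure the spread between these samples, which may in part be technical.

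The marker lists went against a pure interneuron sample. The microglial list (12 genes, led by C1qc and C1qb) summed to between 2734 and 8510.4 FPKM per sample, and the astrocyte list (8 genes, led by Aldoc and Slc1a3) to between 539.6 and 2003. The oligodendrocyte list summed to 391 to 1967, the precursor list (Olig1 and Olig2) to 26.7 to 175, and the endothelial list (Flt1 and Cldn5) to 9.23 to 161. The interneuron list of 13 genes summed to only 34.6 to 297. The 7 general neuronal markers, led by Snap25 and Map2, summed to 39.9 to 334, and the 8 excitatory markers, led by Camk2a and Nrgn, to 30.7 to 556. Dlx5 was listed at 0 in the numbered males, Dlx6 in the dated control males and Dlx2 in the Pvalb males. Emx1 was listed at 0 in the Sst females and in the dated control males. In bulk samples such as these, fewer cells of a type and less RNA per cell cannot be told apart, and the part of other cell types in the subunit levels was not tested.

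**Figure D1:**
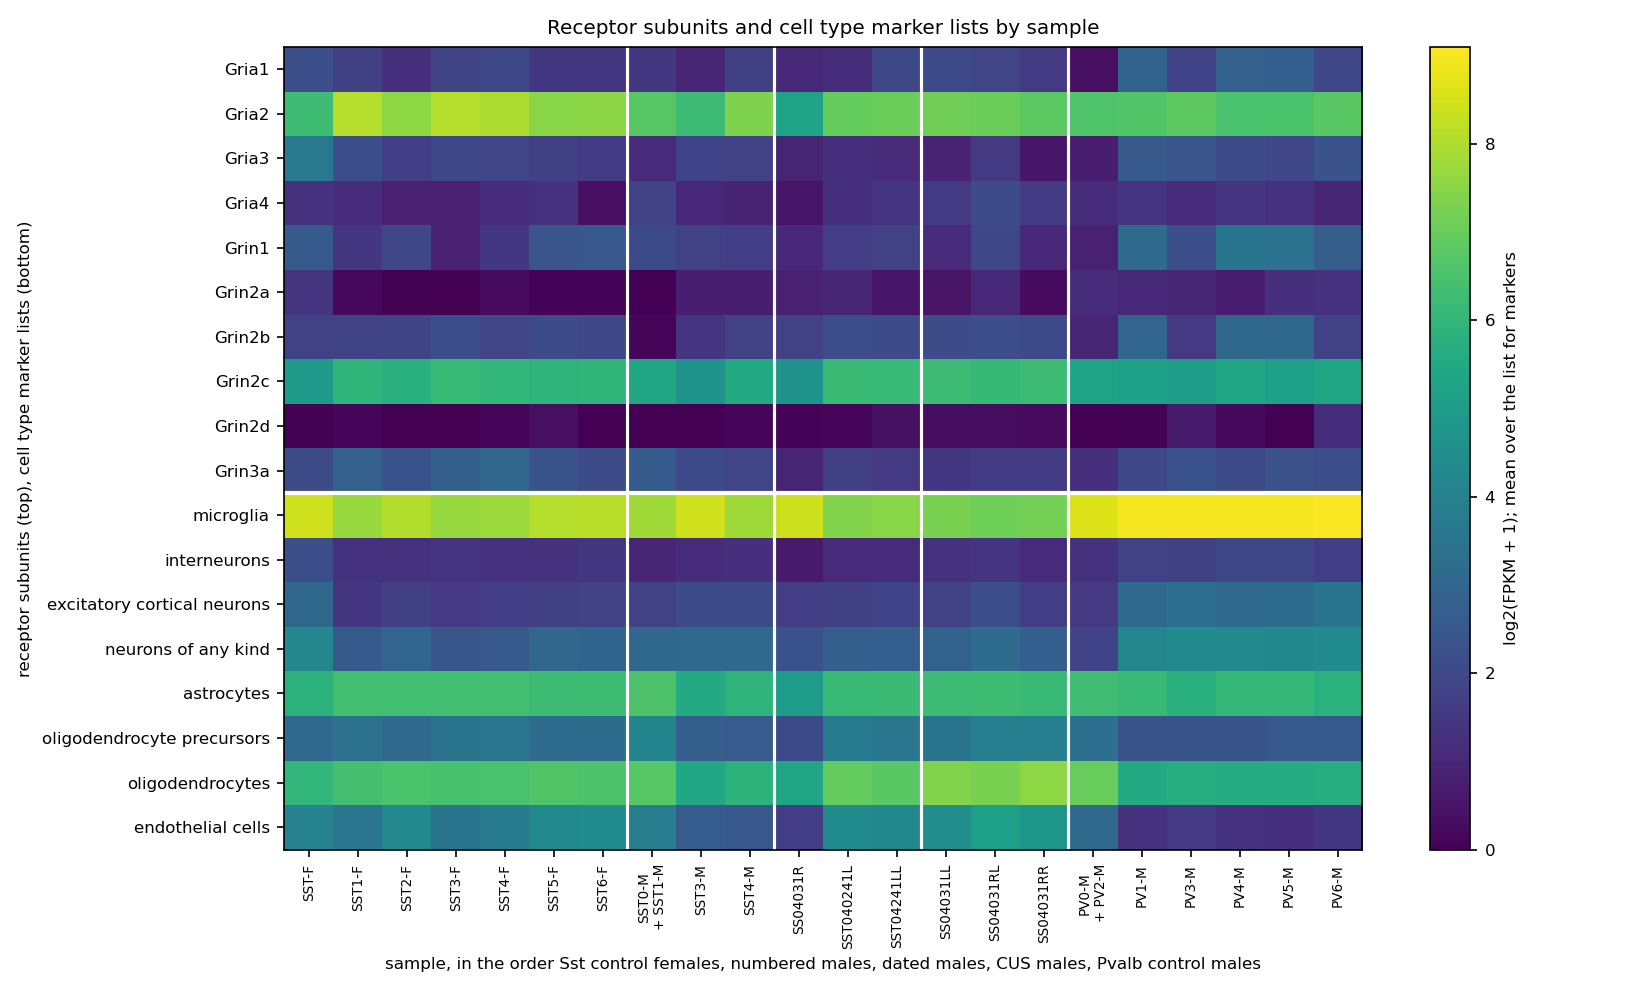
Heat map of log2(FPKM + 1) for the 10 subunits (above the white line) and the mean of log2(FPKM + 1) over each cell type marker list (below it), with samples in columns, split by vertical lines into the 5 sets. Microglial markers are high in every column, and neuronal markers are high in 5 of the 6 Pvalb samples and in the Sst female SST-F.

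Promoter sequence is shown for the obligatory NMDA subunit gene Grin1 and for Grin2c, the NMDA subunit gene with the highest level here. RefSeq (GRCm38.p6) lists Grin1 on chromosome 2 at 25291177 to 25319187 and Grin2c on chromosome 11 at 115249169 to 115267297, both on the minus strand. The 250 bases upstream of the Grin1 start are chr2:25319188-25319437. Of the corresponding 250 bases for Grin2c, the 196 outside the gene's listed span, chr11:115267298-115267493, are printed. Both read 5′ to 3′ on the gene's strand, with matches of the searched motifs in capitals.
Grin1: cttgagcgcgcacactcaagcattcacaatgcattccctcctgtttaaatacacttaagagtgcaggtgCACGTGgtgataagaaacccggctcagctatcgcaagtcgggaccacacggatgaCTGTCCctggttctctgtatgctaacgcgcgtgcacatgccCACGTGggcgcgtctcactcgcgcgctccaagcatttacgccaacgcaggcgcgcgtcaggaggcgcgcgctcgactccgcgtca
Grin2c: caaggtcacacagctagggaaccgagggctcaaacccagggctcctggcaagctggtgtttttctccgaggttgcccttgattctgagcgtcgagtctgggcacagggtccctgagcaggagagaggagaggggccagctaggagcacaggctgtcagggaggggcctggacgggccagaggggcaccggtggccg

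The words below were searched on both strands of the 250 bases. Grin1 held 2 matches of the E-box CACGTG, which 6.02% of 32851 mouse promoters of the same length hold, and 1 match of GGACAG from the right-hand side of the RE1 element bound by the neuronal gene repressor REST, which 18.7% hold and which reads CTGTCC on the strand printed. Grin2c held 3 matches of the GC box GGGCGG (32.7% of promoters), all in the bases not printed, and no match of GGACAG or CACGTG. Neither held TTCAGCACC from the left-hand side of RE1 (0.301%), the TATA box TATAAA (12.4%) or the CAAT box CCAAT (33.8%). A match is a description of the letters only.

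Gria2 and Grin2c stood far above the other 8 subunit genes. Over the 22 samples Gria2 averaged 138 FPKM ± 62.8 (SD) and ranked 325 of 23993 genes, and Grin2c averaged 50.8 ± 17.5 and ranked 1015. Grin1, without which no NMDA receptor forms, averaged 3.51 ± 2.76 FPKM and ranked 10551. Next in order of the mean came Grin3a (3.34 ± 1.55), Grin2b (3.18 ± 1.82), Gria3 (2.75 ± 2.37) and Gria1 (2.63 ± 1.59), and the gaps between these 5 neighbours were smaller than their SDs. Gria4 (1.38 ± 0.673), Grin2a (0.634 ± 0.511) and Grin2d (0.174 ± 0.290) were lowest, and Grin2d passed 0.4 FPKM in 2 samples.

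Gria2 led the AMPA subunits and Grin2c the NMDA subunits in each of the 22 samples. Gria2 held 94.5% ± 3.94 of the summed AMPA subunit FPKM (SD, n = 22), from 82.1% in SST-F to 97.8%. Grin2c held 81.2% ± 9.25 of the NMDA subunit FPKM, from 60.9% in PV5-M to 92.0%. Its level was 3.56 to 86.8 times that of Grin1. The Pvalb males had the lowest mean share of Grin2c, 71.6% ± 10.6 (n = 6), and the highest mean share of Grin1, 11.5% ± 6.00. The Pvalb pair PV0-M and PV2-M was the exception in its group, at 89.9% Grin2c and 1.80% Grin1.

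**Figure D2:**
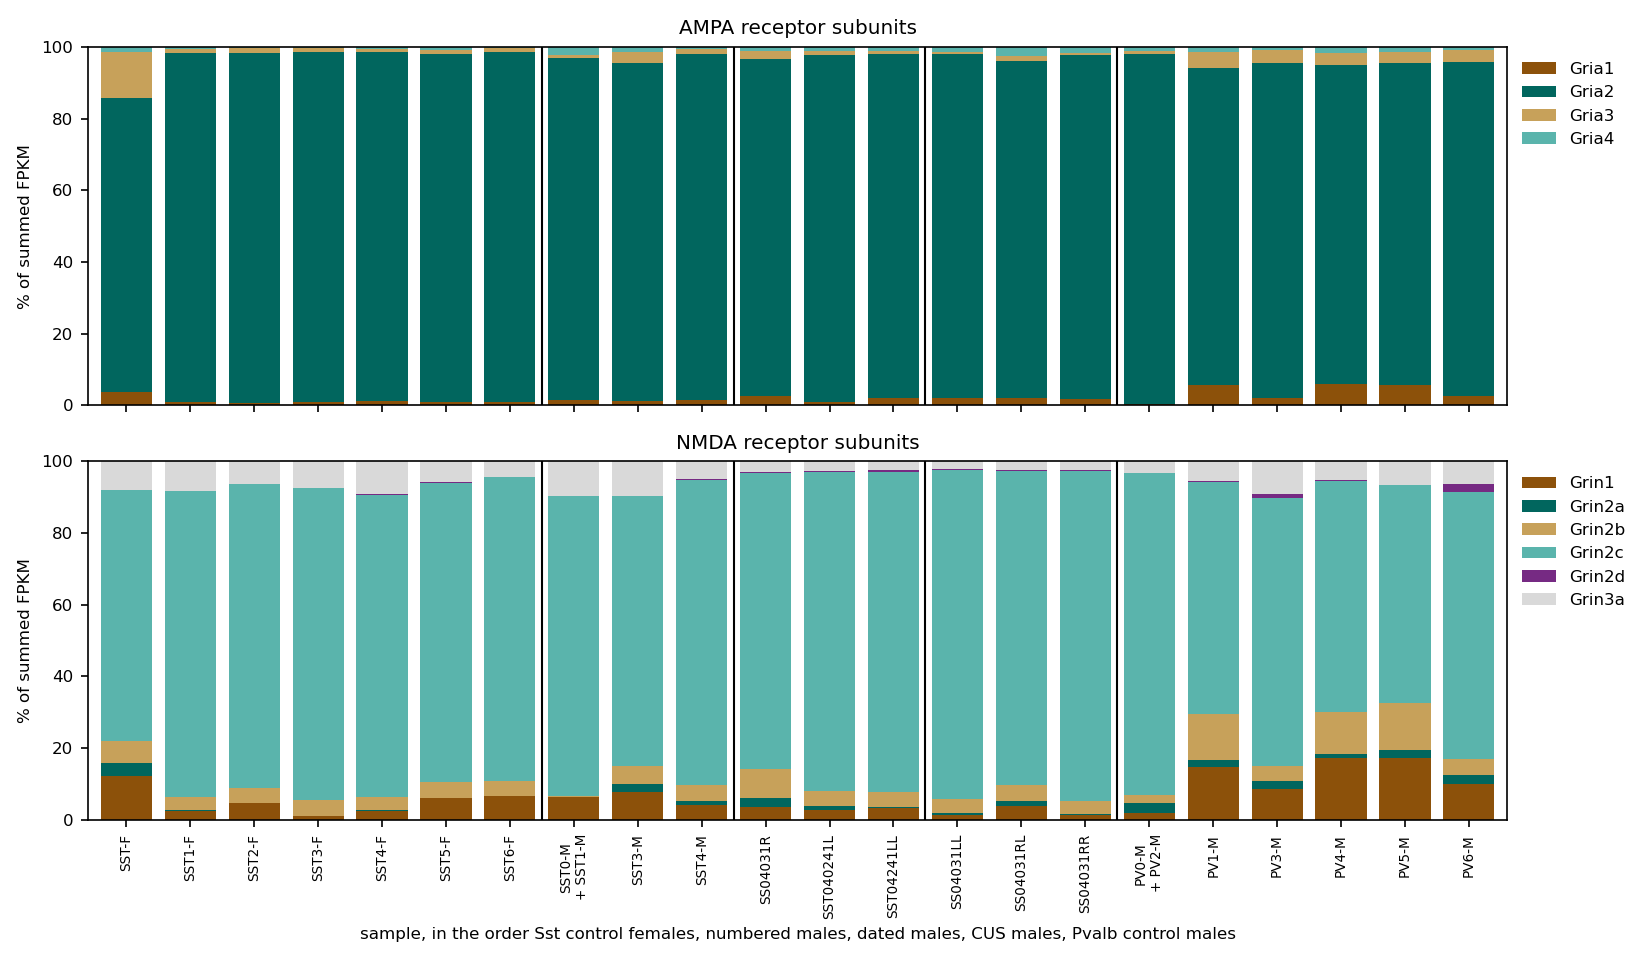
Stacked bars of the percent of summed FPKM that each of the 4 AMPA subunits (top) and each of the 6 NMDA subunits (bottom) held in each of the 22 samples, with vertical lines between the 5 sets. Gria2 fills at least 82.1% of every top bar and Grin2c at least 60.9% of every bottom bar.

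Gria2 was highest in the Sst females, at 77.0, 178, 182, 185, 252, 268 and 270.4 FPKM. The numbered Sst males were at 75.2, 106 and 162, the dated control males at 37.6, 123 and 134, the CUS males at 109.8, 130.4 and 139, and the Pvalb males between 89.7 and 115 with a median of 97.4. All females but SST-F lay above every other sample. The lowest value, 37.6, belonged to the dated male SS04031R, which also held the lowest sums of all samples for the astrocyte (539.6 FPKM), oligodendrocyte (391), precursor (26.7), interneuron (34.6) and general neuronal (39.9) markers and for the 4 related lists of glutamate receptor and synaptic genes. The microglial sum of SS04031R was 7548, against 3427 and 3749 in the other dated control males and 2734 to 3161 in the CUS males.

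Gria1 ranged from 1.33 to 3.51 FPKM in the Sst females (median 2.33). It ranged from 0.947 to 2.27 in the numbered males and from 1.06 to 2.93 in the dated control males. The lower values of the CUS males were 1.89 and 2.72, and the highest, in SS04031LL, lay above every dated control male. The Pvalb males spread more widely, at 0.308, 2.55, 2.88, 5.65, 5.97 and 6.45. The 3 highest of these were the libraries with Xist against the label, and the lowest was the pair PV0-M and PV2-M.

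Gria3 was between 2.06 and 3.52 FPKM in 6 Sst females and 11.9 in SST-F. The numbered males held 1.13, 2.47 and 2.59, the dated control males 0.903, 1.17 and 1.32, the CUS males 0.462, 0.884 and 1.90, and the Pvalb males 0.668 to 4.86 (median 3.70). Gria4, an AMPA subunit gene known for its use in fast-spiking interneurons, lay between 0.281 and 1.44 in the females, 0.825 and 2.39 in the numbered males and 0.421 and 1.68 in the dated control males. It was 1.91, 1.97 and 3.38 in the CUS males and 0.963 to 1.70 in the Pvalb males, so every CUS male lay above every dated control male and every Pvalb male.

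Grin1 ranged from 0.789 to 4.93 FPKM in the Sst females (median 2.86). It was 2.15, 2.40 and 3.11 in the numbered males, 1.01, 2.19 and 2.42 in the dated control males, and 0.994, 1.12 and 2.93 in the CUS males. The Pvalb males held 0.762, 3.67, 5.45, 7.74, 9.65 and 10.6. As with Gria1, the 3 libraries with Xist against the label were highest and the averaged pair was lowest.

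Grin2b, the GluN2 subunit gene that prevails early in cortical development, split the Pvalb males the same way, with the same 3 libraries highest and the pair lowest, at 0.933, 1.83, 2.39, 6.88, 7.18 and 7.38 FPKM. It was far tighter in the Sst females (2.50 to 3.49, median 2.74), the dated control males (2.39, 3.24 and 3.54) and the CUS males (3.09, 3.22 and 3.47). The numbered males held 0.119, 1.59 and 2.48, the lowest being the pair SST0-M and SST1-M. Grin2a, whose product replaces much of GluN2B as the cortex matures, was at most 0.186 in 6 of the 7 females, listed at 0 in 1 of them, and 1.58 in SST-F. It was 0, 0.684 and 0.698 in the numbered males, 0.418, 0.797 and 0.929 in the dated control males, 0.206, 0.397 and 1.07 in the CUS males and 0.664 to 1.44 in the Pvalb males.

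Grin2c, a GluN2 gene best known from cerebellar granule cells and astrocytes, lay between 53.9 and 68.5 FPKM in 6 Sst females and at 28.7 in SST-F. It was 23.9, 42.1 and 46.8 in the numbered males, 24.6, 70.0 and 73.3 in the dated control males, and 68.1, 75.3 and 75.3 in the CUS males. The Pvalb males were close together, at 32.4 to 41.3. Grin2d, a GluN2 gene expressed by cortical interneurons, was listed at 0 in 7 of the 22 samples and reached 0.572 in PV3-M and 1.30 in PV6-M. Grin3a, which encodes a GluN3 subunit that lowers calcium entry, was 3.20 to 7.04 in the females (median 4.11), 2.72 to 4.91 in the numbered males and 1.33 to 3.93 in the Pvalb males. It was 0.923, 1.94 and 2.26 in the dated control males and 1.80, 1.98 and 2.01 in the CUS males, all below every female and every numbered male.

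**Figure D3:**
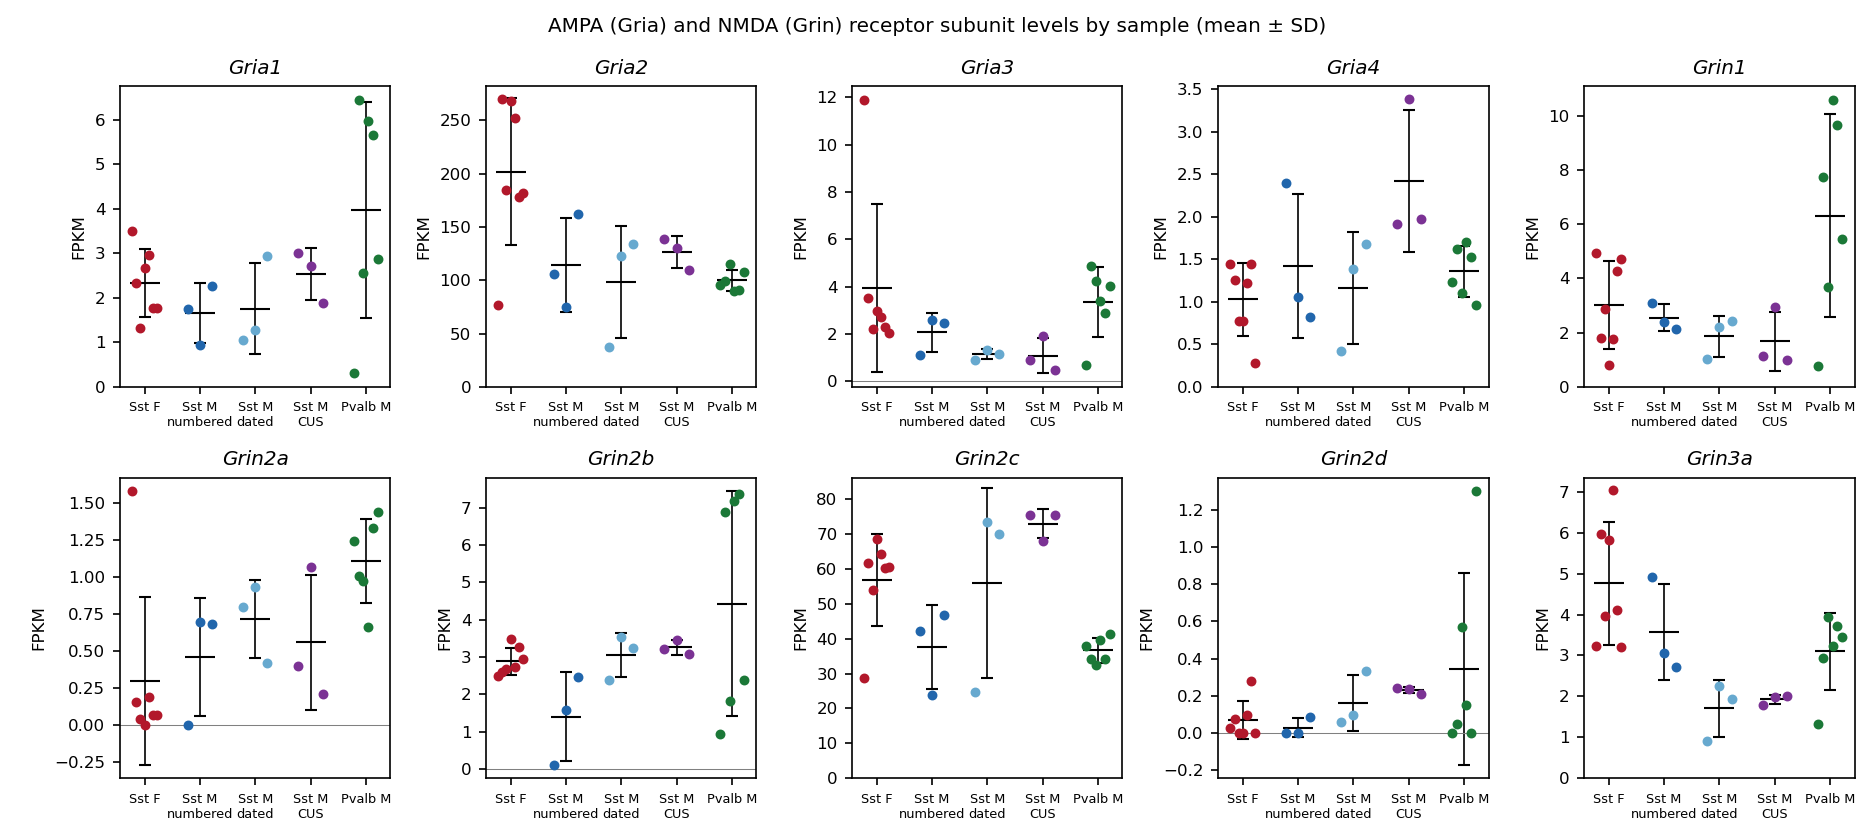
FPKM of each subunit gene in each sample (points), in 5 sets along the x axis: Sst control females (7), numbered (3) and dated (3) Sst control males, Sst CUS males (3) and Pvalb control males (6), with the mean (line) and SD (bars). The y axes differ in range: Gria2 reaches 270.4 and Grin2c 75.3, while the other genes stay at or below 11.9.

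Differences were tested with limma on log2(FPKM + 1) over all genes with a mean above 0.4 FPKM, as two-sided tests. P values were adjusted by Benjamini and Hochberg's method across every gene in the fit, and an adjusted p under 0.05 was called. This scale understates the change of low genes.

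The comparison of the 10 numbered Sst control samples with the 6 Pvalb control males asks how the sorted lines differ. Of these Sst samples 7 were female and 3 male, so line and labelled sex were partly confounded. Grin2a was lower in the Sst samples by a log2 difference of -0.71 ± 0.21 (SE), limma adjusted p = 0.0414, and was the 1 subunit called of 9 tested, while 10.2% of all genes tested were called. The call is fragile: it was lost in 11 of the 16 fits that each left out 1 sample (adjusted p 0.00878 to 0.102), and over all alternatives its adjusted p ran from 0.00878 to 0.872. With the dated males added to the Sst side it was also lost (-0.61, limma adjusted p = 0.0650), where 7.80% of genes were called. With only the numbered Sst males on that side, no subunit was called, where 0.0912% of genes were. Grin2a was then at -0.56 (limma adjusted p = 0.388). Over the 9 subunits 3 were higher and 6 lower in Sst, with a median of -0.17 against 0.01 over all genes.

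Gria2 was higher in Sst by 0.68 ± 0.27 and Grin2c by 0.40 ± 0.21 on the log2 scale, neither passing the threshold (limma adjusted p = 0.104 and 0.214). Against the Pvalb males the 7 Sst females alone gave 3 calls, among 25.1% of all genes: Gria2 was higher by 0.92 ± 0.24 (limma adjusted p = 0.0120), Grin2c was higher by 0.58 ± 0.17 (0.0234), and Grin2a differed by -0.77 ± 0.22 (0.0204). In this contrast line and labelled sex cannot be told apart, and 3 of the 6 Pvalb samples held Xist against that label. Over all alternatives the adjusted p of Gria2 ran from 0.0120 to 0.983 and that of Grin2c from 0.0234 to 0.986. Gria2 was also called without SST-F (0.80, limma adjusted p = 0.0430) and without SST3-M (0.80, 0.0342), where 11.5% and 13.7% of genes were called.

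Grin1 and Gria1 depended on which Pvalb samples were used. With all 6, Grin1 differed by -0.77 ± 0.36 (limma adjusted p = 0.176) and Gria1 by -0.50 ± 0.32 (0.327). Without the pair PV0-M and PV2-M, where 19.9% of genes were called, Grin1 was lower in Sst by -1.13 ± 0.29 (limma adjusted p = 0.0119), Gria1 by -0.84 ± 0.24 (0.0211) and Grin2a by -0.69 ± 0.22 (0.0394). Without the 3 libraries with Xist against the label no subunit was called, where 0.0622% of genes were, Grin1 was at -0.04 ± 0.41, and Gria1 (0.21 ± 0.34) and Grin2b (0.30 ± 0.36) changed sign. Over all alternatives the adjusted p ran from 0.00821 to 0.978 for Grin1 and from 0.0163 to 0.999 for Gria1.

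The general neuronal marker sum was 45.1 FPKM in PV0-M and PV2-M and 254 to 334 in the other Pvalb samples, and the excitatory marker sum 30.7 against 489 to 556. In the numbered Sst samples the neuronal sum was 78.8 to 252 and the excitatory sum 47.5 to 268, both highest in SST-F. Of the markers tested between the lines, in the same fit with its 10.2% of genes called, 2 of 7 general neuronal ones (Rbfox3 and Snap25) and 2 of 7 excitatory ones (Slc17a7 and Camk2a) were lower in Sst, and 3 of 4 endothelial ones (Flt1, Cldn5 and Tek) were higher. Of the astrocyte markers 1 of 8 was higher (Slc1a3) and 1 lower (S100b), and 2 of 12 microglial ones (Tmem119 and C1qc) and 2 of 11 interneuron ones (Nxph1 and Pvalb) were lower. Sst, the marker of the Sst line, was also lower in the Sst samples, by -1.62 ± 0.60. It was not called (limma adjusted p = 0.0876). Of the oligodendrocyte markers 1 of 6 was lower (Mbp), and of the precursor markers 1 of 6 was higher (Sox10). The part of these in the subunit differences was not tested.

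Among genes whose products accompany these receptors at the synapse, each one called between the lines was lower in Sst, in a fit that called 10.2% of all genes. Of the auxiliary subunits of AMPA and kainate receptors, 4 of 13 tested were lower and 0 higher, and of the synaptic scaffolds 4 of 15 were lower and 0 higher. Of the other ionotropic receptors 1 of 6 and of the metabotropic receptors 1 of 5 were lower, with 0 higher in each. The median log2 differences were -0.73 for the auxiliary subunits and -0.54 for the scaffolds, and 0.24 for the other ionotropic and 0.07 for the metabotropic receptors. The largest falls were those of Shank1 (-2.17 ± 0.64, limma adjusted p = 0.0422) and Shank2 (-1.68 ± 0.36, 0.0101), scaffolds of the postsynaptic density, and Cnih3 (-1.92 ± 0.23, 0.000321), a cornichon protein that slows AMPA receptor closing. Cnih3 was at 2.02 to 6.55 FPKM in every Pvalb sample, PV0-M and PV2-M included (5.93), and at most 0.839 in every Sst sample. Shank1, in contrast, was 4.10 in PV0-M and PV2-M and 90.6 to 139.7 in the other Pvalb samples, against 2.22 to 33.7 in the numbered Sst samples.

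**Figure D4:**
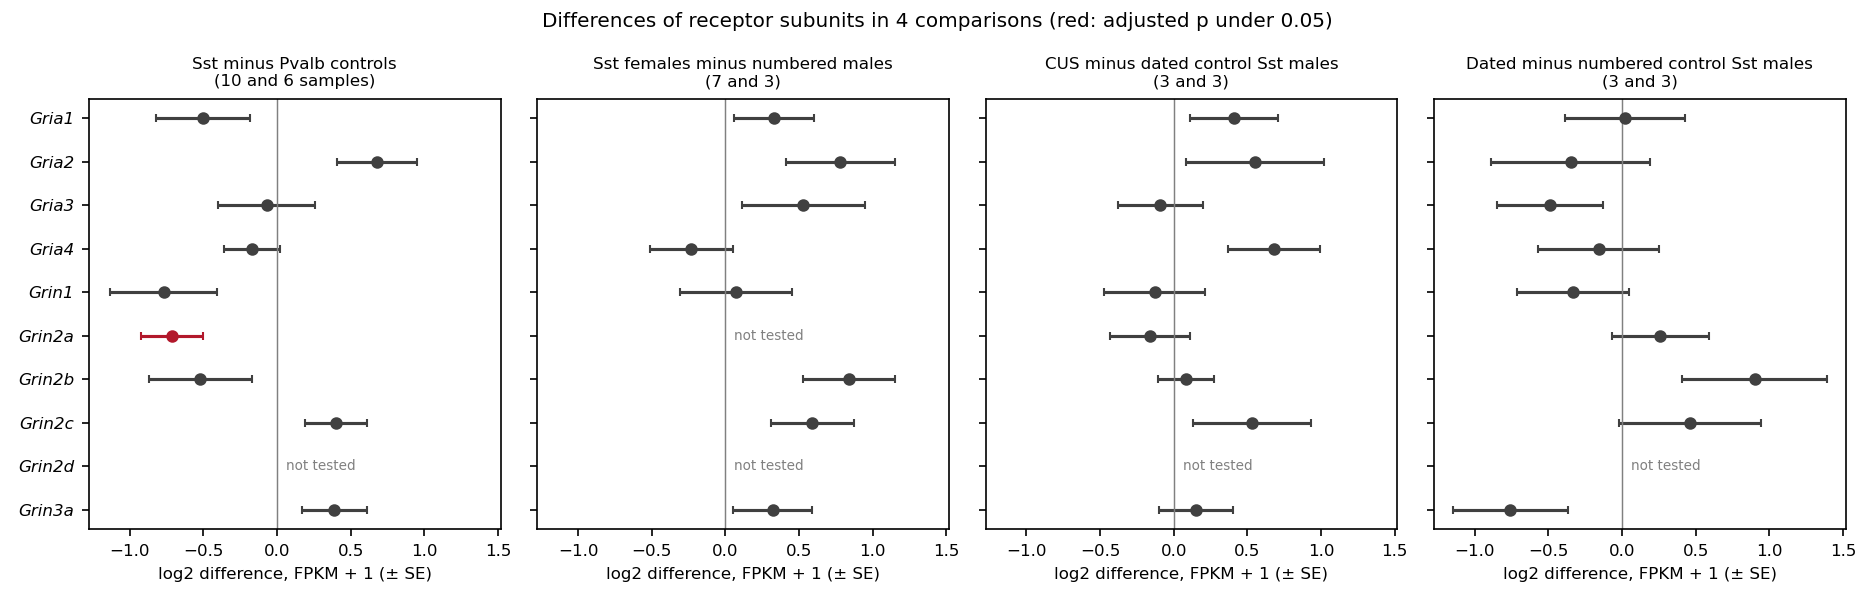
Log2 differences of FPKM + 1 with their SE for each subunit in 4 comparisons, with the number of samples in each title; red marks an adjusted p under 0.05, and genes with a mean at or below 0.4 FPKM are marked not tested. Grin2a between the lines (-0.71) is the 1 red point.

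Between the 7 Sst control females and the 3 numbered Sst control males, none of the 8 subunits tested was called by limma, against 3.41% of all genes, and 1 had an unadjusted p under 0.05. That one was Grin2b, higher in females by 0.84 ± 0.31 (limma adjusted p = 0.134). Gria2 differed by 0.78 ± 0.37 (0.215), Grin2c by 0.59 ± 0.28 (0.217), Gria3 by 0.53 ± 0.42 (0.442), Gria1 by 0.33 ± 0.27 (0.468) and Grin3a by 0.32 ± 0.27 (0.478). Grin1 (0.07 ± 0.38) and Gria4 (-0.23 ± 0.28) were nearer to 0. The median of the 8 was 0.43, against 0.05 over all genes, and 7 of 8 were higher in females.

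Single samples decided the calls. Without SST-F, where 12.4% of all genes were called, Gria2 gave a difference of 1.00 ± 0.25 (limma adjusted p = 0.0321) and Grin2c one of 0.75 ± 0.20 (0.0392). Without SST4-M, where 7.55% of genes were called, Grin2b passed at 1.19 ± 0.32 (limma adjusted p = 0.0473). Over all alternatives the adjusted p ran from 0.0321 to 0.436 for Gria2, from 0.0392 to 0.785 for Grin2c and from 0.0354 to 0.817 for Grin2b. SST-F held neuronal and excitatory marker sums of 252 and 268 FPKM, against 78.8 to 87.3 and 47.5 to 65.6 in the other females. With all 6 male controls none of 9 subunits was called by limma, where 11.7% of genes were, and 3 had an unadjusted p under 0.05: Gria2 (0.96 ± 0.35), Gria3 (0.78 ± 0.32) and Grin3a (0.70 ± 0.26), at adjusted p of 0.0822, 0.118 and 0.0890. Against the 3 numbered males no gene of the 4 related lists was called. Against all 6 male controls 1 of 6 other ionotropic receptors was higher in females (Grik2) and 1 lower (Grin3b), and 2 of 14 auxiliary subunits were higher (Cacng7 and Shisa9). Of the synaptic scaffolds 1 of 14 tested was higher in females in that fit. Against the numbered males, of the microglial markers 4 of 12 (Cx3cr1, Csf1r, C1qb and Itgam) were lower in females, and their part was not tested.

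CUS was compared with no stress in Sst males, over 3 samples each, all dated. None of the 9 subunits tested was called by limma and none had an unadjusted p under 0.05, and 0.00705% of all genes were called. Gria4 had the largest difference, 0.68 ± 0.31 (limma adjusted p = 0.647), followed by Gria2 (0.55 ± 0.47, 0.694), Grin2c (0.53 ± 0.40, 0.679) and Gria1 (0.41 ± 0.30, 0.675). Grin3a (0.15 ± 0.25), Grin2b (0.08 ± 0.19), Gria3 (-0.09 ± 0.29), Grin1 (-0.13 ± 0.34) and Grin2a (-0.16 ± 0.27) lay within their SE of 0. The control SS04031R had the lowest Gria1, Gria2, Gria4, Grin2b, Grin2c, Grin2d and Grin3a of the 6 samples. With all 6 male controls again none was called, against 0.00698% of genes, and Gria4 differed by 0.60 ± 0.32 and Grin2c by 0.76 ± 0.38. No gene of the related lists was called with either set of controls.

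The dated and the numbered Sst male controls, 3 samples each, share genotype, sex and treatment in the labels. None of the 9 subunits tested was called by limma between them and none had an unadjusted p under 0.05, while 4.11% of all genes were called. The largest differences were those of Grin2b (0.90 ± 0.49, limma adjusted p = 0.307) and Grin3a (-0.76 ± 0.39, 0.289), the latter lower in the dated males. Of the related lists, Nptxr, a neuronal pentraxin receptor that gathers AMPA receptors, was higher in the dated males by 1.95 ± 0.37 (limma adjusted p = 0.0351) and was listed at 0 in every numbered male.

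The genes most like Gria2 over the 22 samples by Pearson's r of log2(FPKM + 1) were Ahcyl1 (0.947), Itih3 (0.939), Megf10 (0.938), Eya1 (0.927) and Bmpr1b (0.918), out of 14565 genes. Within the Pvalb males Itih3 kept an r of 0.90, while that of Eya1 was -0.79 and that of Megf10 -0.29. The genes most like Grin2c were Gldc (0.951), a glycine cleavage enzyme, Myo6 (0.950), Kank1 (0.935), Farp1 (0.933) and Fam13c (0.931). Within the Pvalb males, Gldc had an r of 0.66 and Myo6 one of -0.46. Samples of 1 set share line, labelled sex and library series, and the sets differ in these, so the values describe these samples only.

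Among the subunits themselves, Gria2 and Grin2c moved together (r = 0.74 over 22 samples, 0.95 in the Sst females and -0.23 in the Pvalb males). Among the females (n = 7), SST-F was lowest for both. Grin1, Gria1 and Grin2b moved together in the Pvalb males (n = 6; r of 0.98 for Gria1 with Grin1, 0.94 for Gria1 with Grin2b and 0.92 for Grin1 with Grin2b) and not in the Sst females (-0.22, -0.19 and -0.34). In the Pvalb males the libraries with Xist against the label were highest and the pair PV0-M and PV2-M lowest for each of these genes. The r without these samples was not computed.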

How the data were processed

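Expression was deposited by the authors as FPKM, in a single table of 23993 genes and 24 libraries. Their methods describe paired-end sequencing of ribosomal RNA-depleted libraries, name both TopHat2 with mm9 and, further on, HISAT2 with mm10 and StringTie, and mention ComBat, while the submitters' processing notes list mm10, TopHat2, Cufflinks and Cuffdiff. Whether ComBat was applied to the table is not given in the sources used here. Of 30 labelled samples, 6 are not analysed here. Near-identical libraries were averaged, leaving 22 samples. log2(FPKM + 1) was fitted with limma 3.58.1 in R 4.3.3 (trend and robust), for genes with a mean above 0.4 FPKM in the samples compared, and the fit was tested on simulated data. Tables were handled in Python 3.11.15. The FPKM values give no counts, so no count test or counting interval was used. All 10 subunits were described in every comparison, from related lists the called genes (the 3 largest rises and falls where over 6 were called), and from marker lists the 2 highest, of which some are not reported here. The members and lists were chosen with earlier results of these data known. Promoters (RefSeq, GRCm38.p6) were listed for 5 of 10 members. Same-numbered samples did not deviate together (r of -0.05 to 0.12). Alternatives changed the pseudocount, filter, scaling, averaging and samples.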

Additional observations from a re-analysis of the deposited data

Results flagged for a closer look

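Of 30 sets of subunit values in groups of 4 to 10 samples, 5 held 1 sample that lay far from the rest by Dixon's gap test, which chance alone gives in about 1 of 20. The Sst female SST-F held 3 of them: Gria3 at 11.9 FPKM against 2.06 to 3.52 in the other females, Grin2a at 1.58 against 0 to 0.186, and Grin2c at 28.7 against 53.9 to 68.5. Grin2d was 0.282 in the Sst female SST5-F against at most 0.0958 in the others, and 0.335 in the dated Sst male SST04241LL against at most 0.0958 in the other Sst control males.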

How the results depend on the processing

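Of 714 subunit differences recomputed under alternatives, 643 kept their direction and their side of the threshold, 41 changed sign, 16 lost a call and 14 gained one. The share of all genes called is given in brackets. Between the sexes the number of subunits called was 0 (3.41%), and 1 with each library as a sample (17.7%). It was 1 with the dated males only (Grin3a, 1.08, 41.5%), and 0 to 2 leaving out 1 sample (0.692 to 12.4%). Between the lines it was 1 (10.2%). It was 0 with a pseudocount of 5 (9.78%), a mean above 1 FPKM (which drops Grin2a, 10.5%) and all Sst controls (7.80%). It was also 0 with numbered males only (0.0912%) or without the Pvalb libraries against their sex label (0.0622%). It was 3 with the females only (25.1%), and 0 to 3 leaving out 1 sample (3.83 to 19.9%). Settings added after seeing the data gave 0 for males of both lines without those libraries (0.0774%). They gave 3 without both averaged pairs (Gria1, Grin1 and Grin2a, 30.6%), and 2 for the samples of the numbered pairing with no term for the number (11.5%). The replicate block by title number gave 0 calls between the sexes (0.0770%) and 1 between the lines (8.24%), in samples that share only a number. For CUS and for dated against numbered males it stayed 0 in all alternatives run.

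Signs changed as follows. Between the sexes, Grin1 was -0.16 under quantile normalization and -0.56 with the replicate block and in the same samples without it, and Grin2b -0.06 against dated males. Between the lines, Gria3 was 0.04 with each library as a sample, 0.09 with females only and 0.13 without the libraries against their label, where Gria1 was 0.21 and Grin2b 0.30. Grin2c was -0.01 with numbered males only and -0.03 with males of both lines, where Gria4 was 0.15. For CUS, Grin2b was -0.04 under quantile normalization, Gria2 -0.14 against controls of both sexes, Grin2a 0.10 against numbered males, 0.15 against both sexes and 0.01 against all males without SS04031R, and Grin3a -0.23 against all males, -0.61 against numbered males and against both sexes, and -0.40 without SS04031R. For dated against numbered males, Gria1 was -0.09 under quantile normalization.

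Leaving out 1 sample moved the sign of some differences within these ranges: between the sexes Gria4 -0.41 to 0.04 and Grin1 -0.04 to 0.24, between the lines Gria3 -0.32 to 0.04, for CUS Gria2 -0.03 to 0.87, Gria3 -0.36 to 0.14, Grin1 -0.44 to 0.05, Grin2b -0.04 to 0.17 and Grin3a -0.08 to 0.30, and for dated against numbered males Gria1 -0.26 to 0.20, Gria2 -0.67 to 0.23 and Gria4 -0.34 to 0.12. The cause of these changes was not tested. Read depth is unknown, and at under 1 FPKM, as for Grin2a and Grin2d, values rest on few reads.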
